A study of Mus musculus with 9 samples.

Results

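Accessibility was examined at 7 genes of the endothelial and blood lineages in mouse embryonic stem cells: the adhesion genes Pecam1, Cdh5 and Icam2, the receptor gene Kdr, and the transcriptional regulators Tal1, Lmo2 and Gata1. A counted region was assigned to a gene when it overlapped the RefSeq GRCm38 span of the gene or lay within 50 kb of it, with that gene as the nearest protein-coding gene. This gave 68 of 157497 regions, 30 of them at Pecam1, 12 at Cdh5, 1 at Icam2, 8 each at Kdr and Tal1, 5 at Lmo2 and 4 at Gata1. All 68 passed the filter on low counts.

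Open chromatin was profiled in 9 ATAC-seq libraries, made by letting a transposase cut accessible DNA and leave adapters for sequencing. The 3 NanogKO:Esrrb:Nanog libraries came from Nanog knockout cells that carried both Esrrb and Nanog by their labels, the 3 NanogKO:Esrrb libraries from knockout cells that carried Esrrb, and the 3 NanogKO libraries from the knockout itself. All cells were grown without further treatment in 10% serum with 1000 U/ml of leukaemia inhibitory factor, and were sorted as PECAM-positive and PDGFRA-negative, so that every group was gated on the surface protein encoded by Pecam1. The labels give NanogKO the line name N{delta} and both other groups the shared name N{delta}:cE:iN, and the titles give the groups the codes 44JN, 44J and 44C6, so a difference between groups cannot be told apart from one between lines or codes. No label says whether replicates came from separate cultures, so the spread behind the p-values is that of these libraries and may be a technical one.

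Pecam1 encodes PECAM1 (CD31), an immunoglobulin-family adhesion molecule of endothelial cells, platelets and leukocytes that undifferentiated mouse embryonic stem cells also carry on their surface. Cdh5 encodes VE-cadherin, the cadherin of endothelial junctions, and Icam2 an endothelial and platelet ligand of leukocyte integrins. Kdr encodes VEGFR2, the main signalling receptor for vascular endothelial growth factor, which appears early on mesoderm that gives rise to vessels and blood. TAL1 is a basic helix-loop-helix factor that binds E boxes, LMO2 is a bridging protein with no DNA binding of its own, and GATA1 is a zinc-finger factor of red cells and megakaryocytes. In erythroid cells these last proteins join in one complex with LDB1.

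RefSeq promoter windows of GRCm38.p6, from 250 bases before to 50 bases after an annotated start, were matched for 3 of the 7 genes, with 2 windows at Tal1 and 1 each at Kdr and Gata1. They are shown because they tell which counted regions sit on a start site of these genes, and because TAL1, GATA1 and ETS factors are known to act on promoters of this lineage. Each is written 5′ to 3′ on the strand of the gene, and capitals mark a match, on either strand, to one of 3 words. AGATAA is the word read by factors of the GATA family. ETS factors such as FLI1 read AGGAAG. The word that ESRRB reads as a monomer is AAGGTCA.

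Tal1 window 1, chr4:115056176-115056475, plus strand: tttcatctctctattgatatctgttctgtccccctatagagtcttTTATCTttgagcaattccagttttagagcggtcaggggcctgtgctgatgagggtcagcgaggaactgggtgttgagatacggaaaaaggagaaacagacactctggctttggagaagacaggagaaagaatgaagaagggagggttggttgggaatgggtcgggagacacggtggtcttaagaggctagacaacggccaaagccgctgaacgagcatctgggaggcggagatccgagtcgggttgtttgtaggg
Tal1 window 2, chr4:115057561-115057860, plus strand: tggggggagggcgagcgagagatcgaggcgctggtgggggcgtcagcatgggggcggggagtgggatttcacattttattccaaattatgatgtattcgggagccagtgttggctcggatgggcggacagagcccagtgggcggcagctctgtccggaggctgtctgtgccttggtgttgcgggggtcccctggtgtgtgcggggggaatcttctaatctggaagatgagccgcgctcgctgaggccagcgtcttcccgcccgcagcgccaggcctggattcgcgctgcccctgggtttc
Kdr window, chr5:75978406-75978705, minus strand: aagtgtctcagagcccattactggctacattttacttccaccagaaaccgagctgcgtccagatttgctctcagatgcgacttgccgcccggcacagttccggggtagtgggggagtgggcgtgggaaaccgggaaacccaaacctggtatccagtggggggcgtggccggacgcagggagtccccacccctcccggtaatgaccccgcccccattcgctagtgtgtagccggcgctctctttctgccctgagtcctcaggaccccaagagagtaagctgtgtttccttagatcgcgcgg
Gata1 window, chrX:7967861-7968160, minus strand: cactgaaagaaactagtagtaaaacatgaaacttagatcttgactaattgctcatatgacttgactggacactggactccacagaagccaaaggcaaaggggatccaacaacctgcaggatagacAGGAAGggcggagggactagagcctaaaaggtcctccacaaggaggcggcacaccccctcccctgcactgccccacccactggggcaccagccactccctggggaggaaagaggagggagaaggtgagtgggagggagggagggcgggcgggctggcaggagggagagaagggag

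Counted regions covered 78 of the 300 bases of Tal1 window 1, 126 of Tal1 window 2 and all 300 of the Kdr window. The Gata1 window overlapped no counted region. Of 32851 RefSeq windows of the same length, 52.2% overlapped a counted region. Tal1 window 1 held AGATAA on the minus strand at bases 46 to 51, a word found in 11.2% of all windows. The Gata1 window held AGGAAG at bases 126 to 131, found in 35.4% of all windows. The E box CANNTG, which reads the same on both strands and is not capitalised, lay at bases 261 to 266 of Tal1 window 1, at 72 to 77 of the Kdr window and at 53 to 58 of the Gata1 window, and 72.3% of all windows held it. AAGGTCA was in none of these 4 windows and in 4.72% of all windows. No capital letter appears in Tal1 window 2 or in the Kdr window. Windows of Pecam1, Cdh5, Icam2 and Lmo2 are not shown.

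Total counts ran from 35545030 to 58520948 per library, and a member region held 9 to 1607 reads in a library, with a median of 127. Over all regions the first principal component, with 63.6% of the variance, separated the 3 groups. On the second, with 15.5%, NanogKO:Esrrb:Nanog replicate 3 lay at 5.5, apart from replicates 1 and 2 of its group at 87.6 and 101.4. Without this library, 31 of the 33 member regions called below in NanogKO:Esrrb:Nanog against NanogKO kept their call and direction. In NanogKO:Esrrb:Nanog against NanogKO:Esrrb, 17 of 17 did. Values of most single regions below come from all 9 libraries. CPM values are counts scaled to the library total times its TMM normalization factor. The regions near 8 stem cell genes (Pou5f1, Sox2, Utf1, Zfp42, Tdgf1, Sall4, Dppa4 and Fgf4), all of them with counted regions, summed to 1100 to 1170 CPM in NanogKO:Esrrb:Nanog, 1050 to 1120 in NanogKO:Esrrb and 805 to 859 in NanogKO. Regions of 7 primitive endoderm genes summed to 418 to 433 CPM in NanogKO:Esrrb:Nanog, 412 to 452 in NanogKO:Esrrb and 476 to 498 in NanogKO, and those of 6 fibroblast genes to 180 to 184, 181 to 189 and 194 to 201 CPM in the same groups. Regions of 6 blood genes, among them the member Gata1, summed to 288 to 332, 286 to 294 and 286 to 290 CPM. Those of 5 endothelial genes (the members Pecam1 and Cdh5, with Tek, Tie1 and Esam, Emcn having no region) summed to 294 to 315, 288 to 328 and 307 to 325 CPM. These sums are thus not independent of the members. Single genes in both sets were called in both directions against NanogKO. The log2 fold changes in NanogKO:Esrrb:Nanog and NanogKO:Esrrb were 0.50 and 0.60 at Tie1, and −0.47 and −0.40 at Tek. The sum at Pdgfra, the gene of the other sort marker, averaged 93.3 ± 2.94 CPM in NanogKO:Esrrb:Nanog, 76.0 ± 2.67 in NanogKO:Esrrb and 77.1 ± 3.61 in NanogKO (SD, n = 3 each). The part of these differences in the results below was not tested. Fewer cells with an open region and less opening per cell cannot be told apart in bulk libraries.

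The 7 genes differed in direction. Against NanogKO, accessibility summed over the regions of a gene was higher at Kdr and lower at Tal1 in both groups with Esrrb, and lower at Gata1 in NanogKO:Esrrb:Nanog. Of the adhesion genes, the Pecam1 sum was lower in both groups with Esrrb and the Icam2 sum lower in NanogKO:Esrrb, while that of Cdh5 was not called. These calls of Kdr, Tal1 and Gata1 held in all 17 alternative analyses, of which the one within 10 kb summed the same regions for Tal1. The Pecam1 calls held in only 8 of 17 for NanogKO:Esrrb:Nanog and 11 of 17 for NanogKO:Esrrb. The Icam2 call, which rests on 1 region, held in 15 of 17, and the alternative within 10 kb used that same region. The Lmo2 sum was also lower in NanogKO:Esrrb, a call that held in 10 of 17. A single region of Pecam1 was 7.91-fold lower, and one of Cdh5 5.67-fold higher, in NanogKO:Esrrb:Nanog than in NanogKO.

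**Figure D1:**
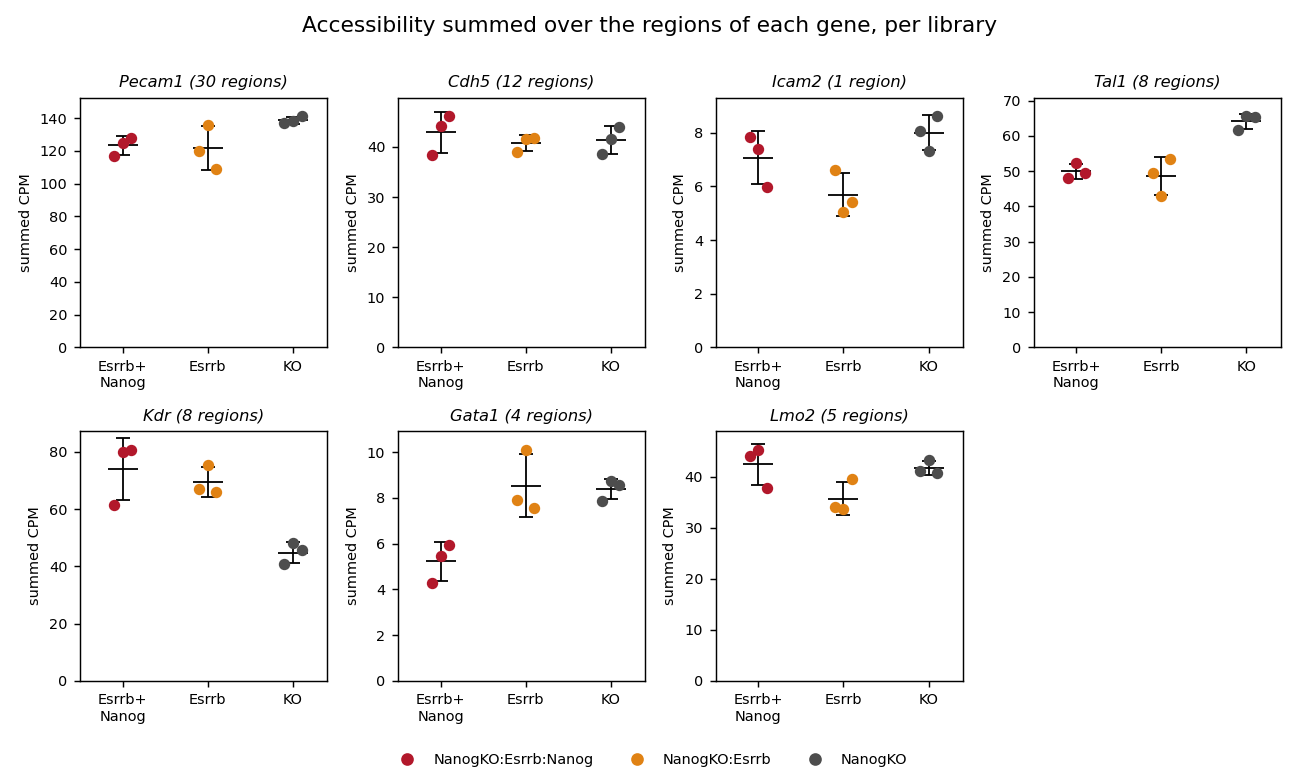
Each panel shows 1 gene, with CPM summed over its counted regions on the vertical axis (starting at 0) and the groups NanogKO:Esrrb:Nanog (Esrrb+Nanog), NanogKO:Esrrb (Esrrb) and NanogKO (KO) on the horizontal axis. Points are libraries, and bars show the mean and SD of 3. At Kdr all 6 libraries with Esrrb lie above the 3 NanogKO libraries, at Tal1 all 6 lie below them, and at Gata1 the 3 NanogKO:Esrrb:Nanog libraries lie below the other 6.

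A region was called when the edgeR quasi-likelihood F test gave an adjusted p under 0.05 over all 157439 regions tested. In NanogKO:Esrrb:Nanog against NanogKO, 12 member regions were called higher and 21 lower, together 48.5% of 68. The same test called 49.3% of all regions, 24.9% higher and 24.4% lower. In NanogKO:Esrrb against NanogKO, 10 were called higher and 16 lower, 38.2% of the members, against 37% of all regions (20% higher and 17% lower). In NanogKO:Esrrb:Nanog against NanogKO:Esrrb, 11 were called higher and 6 lower, 25.0% of the members, against 24.6% of all regions (12.6% higher and 12% lower). The share of members called was thus near that of all regions in each comparison. The median log2 fold change of the members was −0.11, −0.19 and 0.08 in these 3 comparisons, where the median of all regions was −0.01 in each.

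The split of the NanogKO:Esrrb:Nanog against NanogKO:Esrrb calls depended on the analysis. With the replicate number as a block, 12 member regions were called lower in place of 6. With library totals alone as the scale, 9 were higher and 13 lower, and the median log2 fold change of all regions in this comparison was −0.11, with 12765 regions called higher and 25391 lower, against 19777 higher and 18935 lower with TMM factors. Without NanogKO:Esrrb:Nanog replicate 3, 14 member regions were higher and 9 lower.

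**Figure D2:**
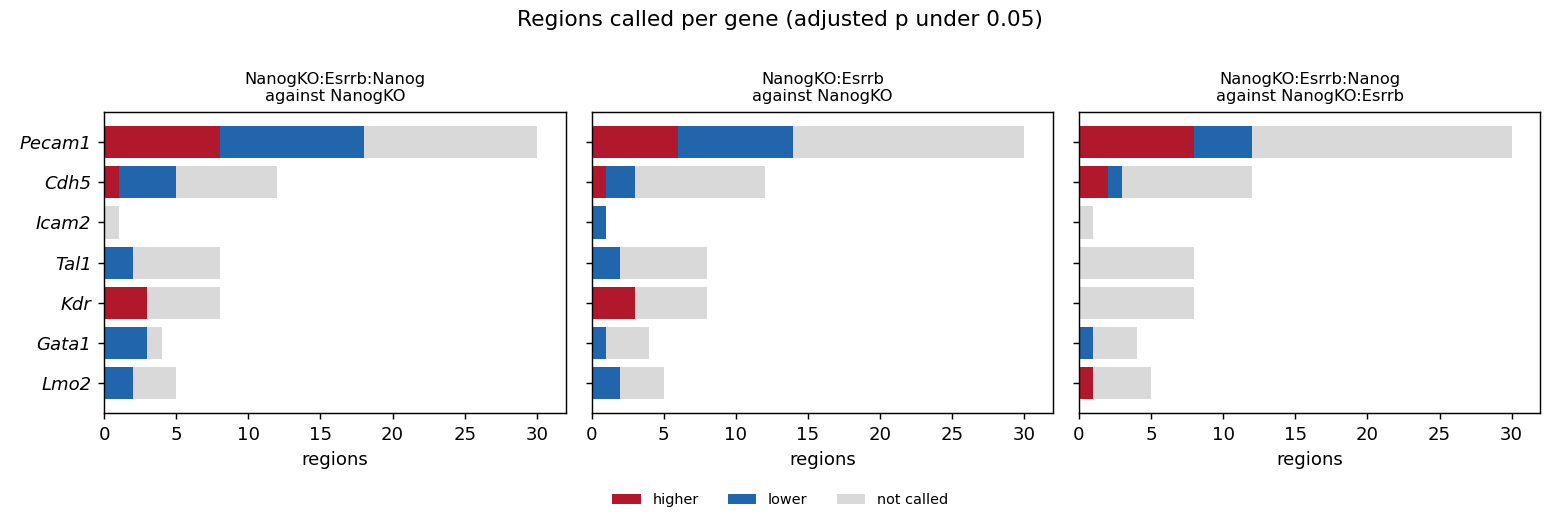
Bars give, for each gene (vertical axis), the number of regions (horizontal axis) called higher (red), called lower (blue) or not called (grey) in each of the 3 comparisons. Pecam1 holds calls in both directions in every panel, Kdr holds only higher calls against NanogKO, and Tal1, Gata1 and Lmo2 hold only lower calls against NanogKO.

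Pecam1 spans chr11:106654213-106715281, and 19 of its 30 regions overlapped the gene. Called regions ran in both directions there. In NanogKO:Esrrb:Nanog against NanogKO, 8 regions were higher and 10 lower, together 60.0% of 30. Of all regions, 49.3% were called in that comparison, 24.9% higher and 24.4% lower. Of the 11 called regions overlapping the gene, 7 were higher. On the low-coordinate side, 5 of 8 regions were lower and 1 was higher. The single regions lay between a log2 fold change of −2.98 and 1.78 in that comparison.

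Of the regions with the smallest p, the region chr11:106637819-106638201, 16012 bp outside the gene on the low-coordinate side, had 1.58, 0.998 and 1.16 CPM in NanogKO:Esrrb:Nanog, 3.58, 2.23 and 2.26 CPM in NanogKO:Esrrb, against 9.34, 9.94 and 10.6 CPM in NanogKO. The 3 groups did not overlap, and each NanogKO library exceeded each library with Esrrb. It was called in all 3 comparisons, with a log2 fold change of −2.98 ± 0.20 (SE) for NanogKO:Esrrb:Nanog against NanogKO (adjusted p = 4.6e-12), −1.89 ± 0.18 for NanogKO:Esrrb against NanogKO (adjusted p = 8.3e-09) and −1.09 ± 0.21 in NanogKO:Esrrb:Nanog relative to NanogKO:Esrrb (adjusted p = 0.00054). The authors' peak lists, 1 per group, held a peak there for NanogKO alone. The intervals of the NanogKO:Esrrb:Nanog list carry peak names of NanogKO:Esrrb replicate 3, so whether that list belongs to its labelled group is uncertain wherever it is used.

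Its neighbours at chr11:106639610-106640024 and chr11:106642046-106642206 also fell against NanogKO. The neighbour at 106639610 had 0.767, 1.09 and 0.934 CPM in NanogKO:Esrrb:Nanog, 1.33, 1.47 and 1.62 CPM in NanogKO:Esrrb, against 3.15, 3.33 and 3.37 CPM in NanogKO, with log2 fold changes of −1.83 ± 0.22 and −1.15 ± 0.20 for the groups with Esrrb against NanogKO (adjusted p = 8.4e-08 and 5.6e-05). The neighbour at 106642046 had log2 fold changes of −1.82 ± 0.26 and −1.81 ± 0.25 in those comparisons (adjusted p = 1.3e-06 and 2.1e-06), and −0.01 in NanogKO:Esrrb:Nanog relative to NanogKO:Esrrb (adjusted p = 0.98). Between and beyond them, the regions at 106638799 and 106648429 were not called in any comparison. Nearer to the gene, the region at 106648060 was lower by −1.62 ± 0.29 in NanogKO:Esrrb:Nanog and −0.92 ± 0.26 in NanogKO:Esrrb against NanogKO (adjusted p = 3.5e-05 and 0.0067). The region at 106646446 was lower in NanogKO:Esrrb:Nanog by −1.07 ± 0.22 against NanogKO and by −1.01 ± 0.22 against NanogKO:Esrrb (adjusted p = 0.00018 and 0.0014). The outermost region at 106634326, only 65 bp long, went the other way, with 1.53, 1.41 and 2.49 CPM in NanogKO:Esrrb:Nanog, 1.51, 1.54 and 1.18 CPM in NanogKO:Esrrb, against 0.756, 0.349 and 0.527 CPM in NanogKO, a log2 fold change of 1.78 ± 0.29 for NanogKO:Esrrb:Nanog against NanogKO (adjusted p = 1.5e-05).

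Within the gene, 5 regions with centres 9.77 to 20.6 kb from the low-coordinate end were higher in NanogKO:Esrrb:Nanog than in both other groups. This stretch was chosen after its values were seen. The region of smallest p in NanogKO:Esrrb:Nanog against NanogKO:Esrrb, chr11:106669836-106670016, had 4.44, 6.78 and 5.86 CPM in NanogKO:Esrrb:Nanog, 2.84, 2.60 and 2.51 CPM in NanogKO:Esrrb, against 2.59, 2.20 and 3.32 CPM in NanogKO. All 3 NanogKO:Esrrb:Nanog libraries lay above the other 6, which overlapped between groups. Its log2 fold change was 1.10 ± 0.19 for NanogKO:Esrrb:Nanog against NanogKO:Esrrb (adjusted p = 0.00017), 1.07 ± 0.19 for NanogKO:Esrrb:Nanog against NanogKO (adjusted p = 3.5e-05) and −0.03 for NanogKO:Esrrb against NanogKO (adjusted p = 0.92). Its neighbour in the stretch, chr11:106669249-106669514, differed in both steps, with 6.24, 8.33 and 6.69 CPM in NanogKO:Esrrb:Nanog, 4.13, 4.79 and 3.06 CPM in NanogKO:Esrrb, against 2.39, 2.11 and 2.33 CPM in NanogKO. Its log2 fold change was 0.81 ± 0.18 for NanogKO:Esrrb against NanogKO (adjusted p = 0.00091) and 0.82 ± 0.17 in NanogKO:Esrrb:Nanog relative to NanogKO:Esrrb (adjusted p = 0.0013). The others of the stretch, at 106663824, 106673171 and 106674768, had log2 fold changes of 1.26, 1.59 and 1.07 for NanogKO:Esrrb:Nanog against NanogKO.

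Further along the gene, chr11:106692788-106693370 was lower in both groups with Esrrb. It had 3.84, 3.40 and 3.96 CPM in NanogKO:Esrrb:Nanog, 5.23, 9.31 and 5.03 CPM in NanogKO:Esrrb, against 10.3, 11.0 and 8.51 CPM in NanogKO. The NanogKO:Esrrb:Nanog libraries lay below all others, while NanogKO:Esrrb replicate 2 reached into the range of NanogKO. All 3 comparisons called it, at a log2 fold change of −1.41 ± 0.19 for NanogKO:Esrrb:Nanog against NanogKO (adjusted p = 6.2e-07), −0.60 ± 0.18 for NanogKO:Esrrb against NanogKO (adjusted p = 0.0093) and −0.80 ± 0.19 in NanogKO:Esrrb:Nanog relative to NanogKO:Esrrb (adjusted p = 0.0033). The region at 106706264 was also called lower in both groups with Esrrb, at −0.95 in NanogKO:Esrrb:Nanog and −0.72 in NanogKO:Esrrb against NanogKO. Calls in this part of the gene ran both ways. The regions at 106696085 and 106707823 were called higher, at 0.97 and 0.85 in NanogKO:Esrrb:Nanog and 0.91 and 0.96 in NanogKO:Esrrb.

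The regions of Pecam1 with the most reads changed less. The region of highest CPM, chr11:106723619-106724739, 8338 bp beyond the high-coordinate end, had 20.7, 18.0 and 20.3 CPM in NanogKO:Esrrb:Nanog, 26.0, 26.9 and 20.8 CPM in NanogKO:Esrrb, against 31.0, 24.9 and 24.4 CPM in NanogKO, with a log2 fold change of −0.44 ± 0.12 for NanogKO:Esrrb:Nanog against NanogKO (adjusted p = 0.0044). Its neighbour at 106722625 had 22.8, 19.9 and 18.7 CPM in NanogKO:Esrrb:Nanog, 15.2, 15.5 and 12.9 CPM in NanogKO:Esrrb, against 18.7, 18.2 and 16.3 CPM in NanogKO, with a log2 fold change of 0.50 ± 0.12 for NanogKO:Esrrb:Nanog against NanogKO:Esrrb (adjusted p = 0.004). Neither comparison called both of these adjoining regions. The region across the high-coordinate end of the gene, chr11:106715028-106715615, averaged 4.05 ± 0.106 CPM in NanogKO:Esrrb:Nanog, 3.18 ± 0.0801 CPM in NanogKO:Esrrb and 4.41 ± 0.902 CPM in NanogKO (SD, n = 3 each), and was called in NanogKO:Esrrb against NanogKO (log2 fold change −0.47 ± 0.17, adjusted p = 0.033), but not in the other comparisons.

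**Figure D3:**
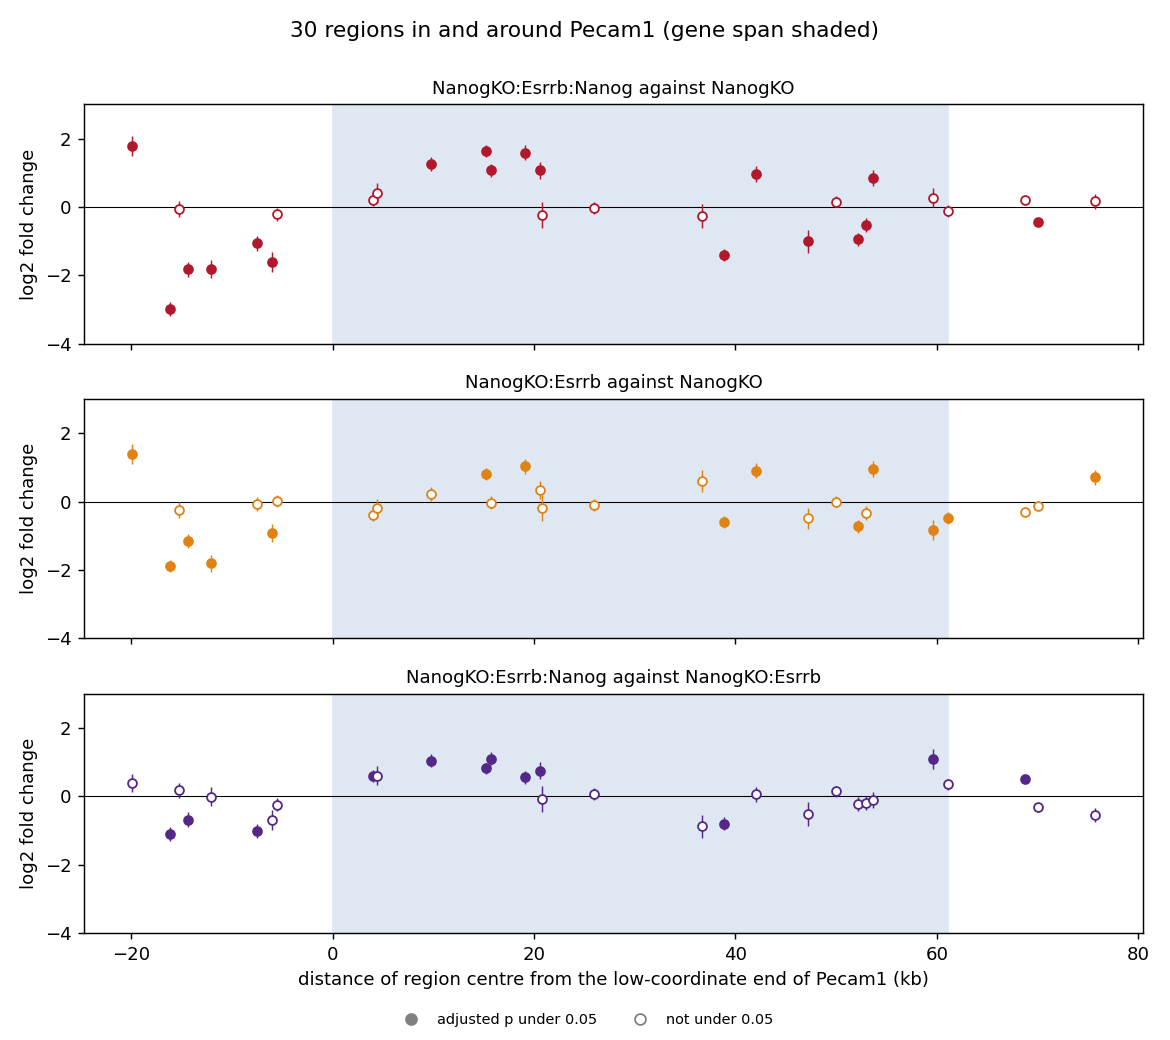
The horizontal axis gives the distance in kb of the centre of each of the 30 Pecam1 regions from the low-coordinate end of the gene, whose span is shaded, and the vertical axis the log2 fold change in each of the 3 comparisons. Bars are standard errors and filled points had an adjusted p under 0.05. Against NanogKO, the lowest points lie left of the gene, down to −2.98 in NanogKO:Esrrb:Nanog, where 4 filled points in the gene also lie below 0 and the 5 points at 9.77 to 20.6 kb lie above 1 in NanogKO:Esrrb:Nanog.

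Summed over its 30 regions, Pecam1 had 117, 125 and 128 CPM in NanogKO:Esrrb:Nanog, 120, 136 and 109 CPM in NanogKO:Esrrb, against 137, 138 and 141 CPM in NanogKO. All 6 libraries with Esrrb lay below the 3 NanogKO libraries, the nearest being NanogKO:Esrrb replicate 2. For gene sums the test ran over 18719 genes. The log2 fold change of the sum was −0.17 ± 0.07 for NanogKO:Esrrb:Nanog against NanogKO (adjusted p = 0.049) and −0.19 ± 0.07 for NanogKO:Esrrb against NanogKO (adjusted p = 0.038). The first call was lost with DESeq2 size factors (adjusted p = 0.06), with the DESeq2 test (adjusted p = 0.058), without any 1 NanogKO library (adjusted p = 0.08, 0.1 and 0.12), without NanogKO:Esrrb replicate 1 (0.06), without NanogKO:Esrrb:Nanog replicate 1 or 2 (0.16 and 0.092), and over regions within 10 kb (0.71). The second was lost without any 1 NanogKO library (adjusted p = 0.068, 0.089 and 0.1), without NanogKO:Esrrb replicate 1 or 3 (0.11 and 0.2), and over regions within 10 kb (0.39).

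Cdh5, at chr8:104101613-104144504, had 12 regions, and the largest change lay far from the gene. The region chr8:104068488-104069063, 32550 bp from it on the low-coordinate side, had 9.83, 12.9 and 10.0 CPM in NanogKO:Esrrb:Nanog, 5.31, 5.31 and 4.44 CPM in NanogKO:Esrrb, against 1.46, 2.13 and 2.11 CPM in NanogKO. The groups were fully separated, NanogKO:Esrrb:Nanog highest and NanogKO lowest. This gave a log2 fold change of 2.50 ± 0.17 for NanogKO:Esrrb:Nanog against NanogKO (adjusted p = 7e-12), 1.39 ± 0.17 for NanogKO:Esrrb against NanogKO (adjusted p = 4.9e-07) and 1.11 ± 0.16 in NanogKO:Esrrb:Nanog relative to NanogKO:Esrrb (adjusted p = 2.1e-05). Both peak lists with Esrrb held a peak there, and that of NanogKO did not.

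The other Cdh5 regions were lower or not called against NanogKO. The region at 104091269, 9815 bp from the gene, had 1.02, 1.29 and 1.76 CPM in NanogKO:Esrrb:Nanog, 2.44, 2.18 and 2.49 CPM in NanogKO:Esrrb, against 2.63, 2.94 and 2.45 CPM in NanogKO, with a log2 fold change of −0.97 ± 0.22 for NanogKO:Esrrb:Nanog against NanogKO (adjusted p = 0.00058). The region nearest to the gene among those outside it, chr8:104099867-104100195 at 1418 bp, had a log2 fold change of −0.83 ± 0.28 for NanogKO:Esrrb:Nanog against NanogKO (adjusted p = 0.016). In the gene, chr8:104105873-104106126 had 2.88, 2.58 and 2.63 CPM in NanogKO:Esrrb:Nanog, 1.53, 1.06 and 1.20 CPM in NanogKO:Esrrb, against 2.07, 2.09 and 2.27 CPM in NanogKO. There NanogKO:Esrrb was lowest, without overlap, at a log2 fold change of −0.77 ± 0.21 against NanogKO (adjusted p = 0.0046), and NanogKO:Esrrb:Nanog was higher than NanogKO:Esrrb by 1.10 ± 0.21 (adjusted p = 0.00046).

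The Cdh5 region of highest CPM, chr8:104146208-104146779, 1704 bp beyond the high-coordinate end, had 5.20, 4.81 and 5.95 CPM in NanogKO:Esrrb:Nanog, 6.02, 6.53 and 5.69 CPM in NanogKO:Esrrb, against 8.07, 6.91 and 6.55 CPM in NanogKO. There NanogKO:Esrrb:Nanog was lower than NanogKO by a log2 fold change of −0.42 ± 0.15 (adjusted p = 0.019), and the other 2 comparisons were not called.

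The sum over Cdh5 regions was 38.4, 44.2 and 46.1 CPM in NanogKO:Esrrb:Nanog, 38.9, 41.6 and 41.8 CPM in NanogKO:Esrrb, against 38.5, 41.5 and 44.0 CPM in NanogKO. The groups overlapped throughout, and the sum was not called in any comparison (log2 fold changes 0.05, −0.02 and 0.07, each ± 0.08). Over regions within 10 kb, which leaves out the distant region, the sum was called lower against NanogKO, with a log2 fold change of −0.41 for NanogKO:Esrrb:Nanog (adjusted p = 0.0021) and −0.28 for NanogKO:Esrrb (adjusted p = 0.031).

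Icam2, at chr11:106377656-106388139, had a single region, chr11:106391939-106392290, 3800 bp from the gene on the high-coordinate side. It had 7.65, 6.95 and 5.43 CPM in NanogKO:Esrrb:Nanog, 5.96, 4.44 and 4.82 CPM in NanogKO:Esrrb, against 7.63, 6.65 and 7.79 CPM in NanogKO. The NanogKO:Esrrb libraries lay below the NanogKO libraries, and the NanogKO:Esrrb:Nanog range overlapped both. The log2 fold change was −0.54 ± 0.16 for NanogKO:Esrrb against NanogKO (adjusted p = 0.0082, and 0.051 without NanogKO:Esrrb replicate 2) and −0.14 ± 0.16 for NanogKO:Esrrb:Nanog against NanogKO (adjusted p = 0.47). Between NanogKO:Esrrb:Nanog and NanogKO:Esrrb it was 0.40 ± 0.16 with an adjusted p of 0.067. That last difference was called with the replicate number as a block (adjusted p = 0.043), without NanogKO:Esrrb:Nanog replicate 3 (0.012) and without NanogKO:Esrrb replicate 1 (0.044). In the test over gene sums, Icam2 had a log2 fold change of −0.49 ± 0.15 for NanogKO:Esrrb against NanogKO (adjusted p = 0.016), a call lost without NanogKO:Esrrb replicate 2 (0.08) and without NanogKO replicate 3 (0.07).

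Kdr, at chr5:75932827-75979072 on the minus strand, was the member whose sum was higher in both groups with Esrrb. Over its 8 regions it had 61.5, 79.8 and 80.7 CPM in NanogKO:Esrrb:Nanog, 67.1, 75.5 and 65.8 CPM in NanogKO:Esrrb, against 40.7, 48.1 and 45.6 CPM in NanogKO. Every library with Esrrb exceeded every NanogKO library. For the sum, the log2 fold change was 0.72 ± 0.09 for NanogKO:Esrrb:Nanog against NanogKO, a 1.65-fold difference (adjusted p = 3.7e-06), and 0.63 ± 0.09 for NanogKO:Esrrb against NanogKO, a 1.55-fold difference (adjusted p = 3.1e-05). Between NanogKO:Esrrb:Nanog and NanogKO:Esrrb it was 0.09 ± 0.09 (adjusted p = 0.51), and none of the 8 regions was called.

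The same 3 Kdr regions were higher in both groups with Esrrb. Upstream of the gene by 34760 bp, chr5:76013832-76014566 had 3.86, 7.63 and 5.60 CPM in NanogKO:Esrrb:Nanog, 3.86, 5.91 and 4.51 CPM in NanogKO:Esrrb, against 0.878, 1.14 and 0.770 CPM in NanogKO, with log2 fold changes of 2.59 ± 0.24 and 2.35 ± 0.24 against NanogKO (adjusted p = 1.2e-09 and 1.8e-08). In the 3′ part of the gene, chr5:75941072-75942589, the longest member region at 1518 bp, had 19.8, 20.9 and 23.8 CPM in NanogKO:Esrrb:Nanog, 19.7, 22.0 and 17.5 CPM in NanogKO:Esrrb, against 6.58, 11.3 and 7.87 CPM in NanogKO, with log2 fold changes of 1.32 ± 0.15 and 1.19 ± 0.15 (adjusted p = 4.9e-08 and 5.3e-07). The libraries of NanogKO:Esrrb:Nanog and NanogKO:Esrrb overlapped at both regions and lay above all of NanogKO. The third, chr5:75933476-75934599, had log2 fold changes of 0.87 ± 0.15 and 0.61 ± 0.15 (adjusted p = 1.7e-05 and 0.0015).

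The region over the Kdr promoter window printed above, chr5:75977619-75978956, was the one with the most reads and had 22.2, 27.5 and 26.3 CPM in NanogKO:Esrrb:Nanog, 23.8, 21.9 and 22.3 CPM in NanogKO:Esrrb, against 21.3, 21.3 and 21.1 CPM in NanogKO. Its log2 fold change was 0.25 ± 0.11 for NanogKO:Esrrb:Nanog against NanogKO (adjusted p = 0.064) and 0.09 ± 0.11 for NanogKO:Esrrb against NanogKO (adjusted p = 0.55). The smallest p among Kdr regions in NanogKO:Esrrb:Nanog against NanogKO:Esrrb belonged to chr5:75896496-75896710, with a log2 fold change of 0.66 ± 0.26 (adjusted p = 0.065, and called at 0.038 without NanogKO:Esrrb:Nanog replicate 1).

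Tal1, at chr4:115056426-115071755 on the plus strand, was lower in both groups with Esrrb, and the calls lay downstream of the gene. The region chr4:115079043-115079829, 7288 bp past its end, had 2.49, 1.97 and 2.13 CPM in NanogKO:Esrrb:Nanog, 2.88, 2.38 and 3.48 CPM in NanogKO:Esrrb, against 10.4, 10.1 and 10.8 CPM in NanogKO. Each NanogKO library stood far above the other 6. Against NanogKO the fit gave a log2 fold change of −2.24 ± 0.17 for NanogKO:Esrrb:Nanog (adjusted p = 2.6e-11) and −1.84 ± 0.16 for NanogKO:Esrrb (adjusted p = 1.5e-09). Between NanogKO:Esrrb:Nanog and NanogKO:Esrrb it was −0.40 ± 0.17 (adjusted p = 0.088, and called at 0.036 with library totals alone and at 0.037 without NanogKO:Esrrb replicate 2).

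The region between it and the gene, chr4:115075361-115075855, with its centre 19.2 kb from the gene's start, had 2.63, 2.38 and 3.74 CPM in NanogKO:Esrrb:Nanog, 4.05, 2.65 and 4.31 CPM in NanogKO:Esrrb, against 5.93, 5.71 and 8.01 CPM in NanogKO. Its log2 fold changes were −1.15 ± 0.20 and −0.84 ± 0.20 against NanogKO (adjusted p = 2.8e-05 and 0.0012). A blood stem cell enhancer of mouse Tal1 is known downstream of the gene, and whether it coincides with either region was not tested. All peak lists held a peak at both regions.

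Of the regions over the Tal1 promoter windows printed above, chr4:115056398-115057507 overlapped window 1 and had 20.2, 22.0 and 18.8 CPM in NanogKO:Esrrb:Nanog, 18.3, 15.0 and 18.1 CPM in NanogKO:Esrrb, against 20.3, 20.2 and 18.7 CPM in NanogKO. Its log2 fold changes were 0.04 and −0.21 against NanogKO (adjusted p = 0.79 and 0.17). The small region chr4:115057735-115057869, over window 2, was not called either. Summed over 8 regions, Tal1 had 48.0, 52.3 and 49.5 CPM in NanogKO:Esrrb:Nanog, 49.5, 42.8 and 53.3 CPM in NanogKO:Esrrb, against 61.7, 65.5 and 65.2 CPM in NanogKO. The NanogKO libraries lay above all others, at log2 fold changes of −0.36 ± 0.08 in NanogKO:Esrrb:Nanog (adjusted p = 0.00067) and −0.40 ± 0.08 in NanogKO:Esrrb (adjusted p = 0.00041) against NanogKO.

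Lmo2, at chr2:103957903-103981878, had its reads in the gene and its calls against NanogKO outside it. The region chr2:103969375-103969974 in the gene had 21.5, 23.2 and 16.3 CPM in NanogKO:Esrrb:Nanog, 13.8, 14.3 and 16.3 CPM in NanogKO:Esrrb, against 17.9, 17.6 and 16.1 CPM in NanogKO. NanogKO:Esrrb:Nanog replicate 3 fell to the level of the highest NanogKO:Esrrb library, below replicates 1 and 2 of its group. The log2 fold change in NanogKO:Esrrb:Nanog against NanogKO:Esrrb was 0.45 ± 0.13 (adjusted p = 0.012, with 0.00044 without NanogKO:Esrrb:Nanog replicate 3, 0.083 without NanogKO:Esrrb:Nanog replicate 2 and 0.059 without NanogKO:Esrrb replicate 1). It was not called against NanogKO.

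The region chr2:103941212-103941508, 16395 bp from Lmo2 on the low-coordinate side, had 0.415, 0.411 and 0.571 CPM in NanogKO:Esrrb:Nanog, 0.596, 0.569 and 0.435 CPM in NanogKO:Esrrb, against 1.93, 2.41 and 1.80 CPM in NanogKO. The NanogKO libraries lay above the other 6 without overlap, at log2 fold changes of −2.11 ± 0.27 in NanogKO:Esrrb:Nanog (adjusted p = 3.3e-07) and −1.94 ± 0.26 in NanogKO:Esrrb (adjusted p = 1.4e-06). The region chr2:103984658-103984838, 2780 bp beyond the other end, was lower as well, by −1.10 ± 0.28 in NanogKO:Esrrb:Nanog and −0.80 ± 0.27 in NanogKO:Esrrb (adjusted p = 0.0018 and 0.019). Both had a peak in the NanogKO list alone. The region nearest to the gene, chr2:103982188-103982482 at 310 bp, had 5.18, 3.93 and 3.98 CPM in NanogKO:Esrrb:Nanog, 3.93, 3.42 and 4.61 CPM in NanogKO:Esrrb, against 5.02, 4.08 and 4.38 CPM in NanogKO, overlapped between all groups and was not called.

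Over its 5 regions, Lmo2 had 44.1, 45.3 and 37.9 CPM in NanogKO:Esrrb:Nanog, 34.0, 33.7 and 39.5 CPM in NanogKO:Esrrb, against 41.1, 43.4 and 40.7 CPM in NanogKO. NanogKO:Esrrb was lowest on average, with NanogKO:Esrrb replicate 3 above NanogKO:Esrrb:Nanog replicate 3. The log2 fold change was −0.22 ± 0.08 for NanogKO:Esrrb against NanogKO (adjusted p = 0.044), a call lost without any 1 NanogKO library (adjusted p = 0.07, 0.15 and 0.067), without NanogKO:Esrrb replicate 1 or 2 (0.16 each), and over regions within 10 kb (0.13) or 100 kb (0.15). It was 0.25 ± 0.08 for NanogKO:Esrrb:Nanog against NanogKO:Esrrb (adjusted p = 0.042), a call lost with library totals alone (0.074), with only these 2 groups in the fit (0.071), and without any 1 of the NanogKO libraries (0.05, 0.055 and 0.054), NanogKO:Esrrb replicate 1 or 2 (0.14 each), or NanogKO:Esrrb:Nanog replicate 1 or 2 (0.11 and 0.17).

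Gata1, at chrX:7959260-7976663 on the minus strand, had the lowest mean level per kb of counted region of the 7 genes, and its own sum was lowest in NanogKO:Esrrb:Nanog. None of its 4 regions overlapped the gene. The region chrX:7988778-7989125, 12115 bp upstream, had 0.373, 0.499 and 0.709 CPM in NanogKO:Esrrb:Nanog, 1.75, 2.70 and 1.86 CPM in NanogKO:Esrrb, against 1.17, 1.58 and 1.56 CPM in NanogKO. The NanogKO:Esrrb:Nanog libraries lay below all others and NanogKO:Esrrb above NanogKO, without overlap. The NanogKO:Esrrb:Nanog libraries differed by a log2 fold change of −1.97 ± 0.28 from NanogKO:Esrrb (adjusted p = 1.6e-05) and −1.43 ± 0.28 from NanogKO (adjusted p = 0.00015), while NanogKO:Esrrb differed from NanogKO by 0.54 ± 0.25 (adjusted p = 0.083).

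The next region, chrX:7984845-7985068, 8182 bp upstream, was lower in both groups with Esrrb. It had 1.22, 1.58 and 1.09 CPM in NanogKO:Esrrb:Nanog, 0.795, 1.21 and 0.992 CPM in NanogKO:Esrrb, against 2.39, 2.11 and 1.80 CPM in NanogKO, with log2 fold changes of −0.71 ± 0.24 in NanogKO:Esrrb:Nanog (adjusted p = 0.015) and −1.06 ± 0.24 in NanogKO:Esrrb (adjusted p = 0.0008). The region chrX:7977794-7978310, 1131 bp upstream and the strongest of the 4, had 1.66, 2.41 and 2.77 CPM in NanogKO:Esrrb:Nanog, 3.34, 3.57 and 2.80 CPM in NanogKO:Esrrb, against 2.68, 2.54 and 2.72 CPM in NanogKO, and was not called. On the other side, chrX:7956527-7956803, 2457 bp downstream, was lower in NanogKO:Esrrb:Nanog than in NanogKO by −0.92 ± 0.25 (adjusted p = 0.0039). It was not called in the other comparisons. Summed, Gata1 had 4.27, 5.47 and 5.92 CPM in NanogKO:Esrrb:Nanog, 7.92, 10.1 and 7.56 CPM in NanogKO:Esrrb, against 7.88, 8.72 and 8.57 CPM in NanogKO. The NanogKO:Esrrb:Nanog libraries lay below the other 6, at log2 fold changes of −0.69 ± 0.16 against NanogKO (adjusted p = 0.0012) and −0.71 ± 0.15 against NanogKO:Esrrb (adjusted p = 0.004, and 0.07 over regions within 10 kb).

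**Figure D4:**
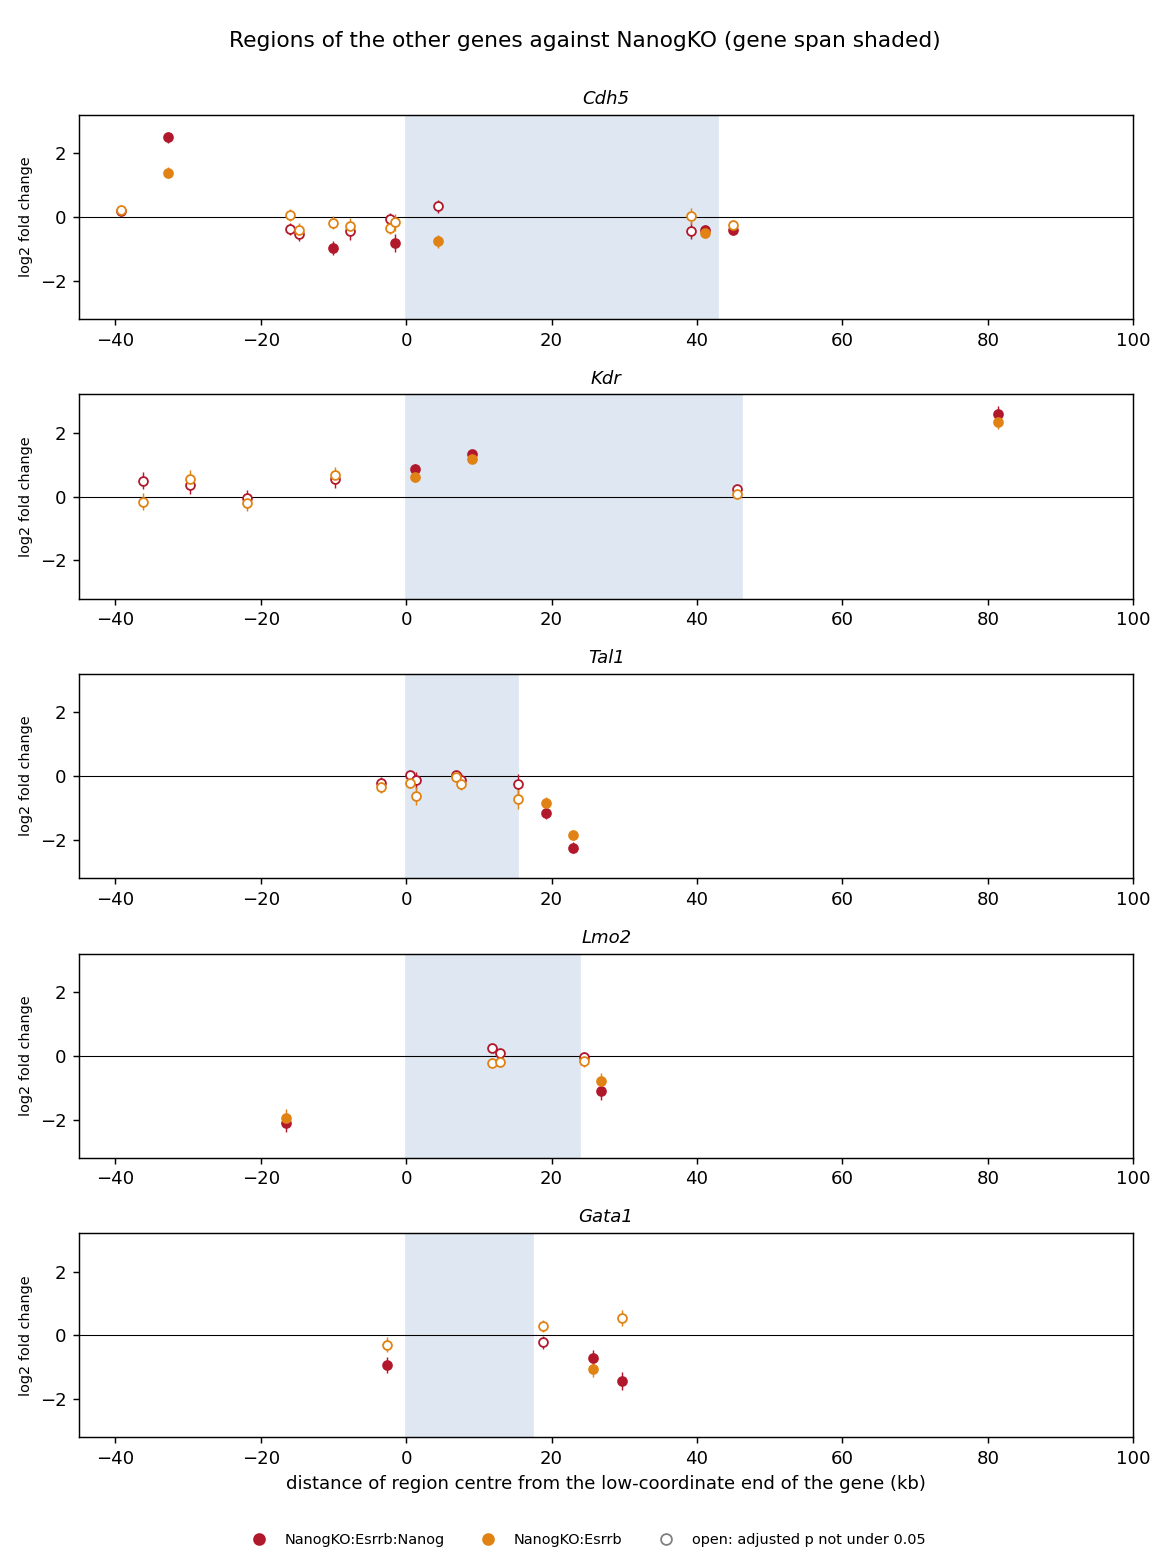
For Cdh5, Kdr, Tal1, Lmo2 and Gata1, the horizontal axis gives the distance in kb of each region centre from the low-coordinate end of the gene (span shaded) and the vertical axis the log2 fold change against NanogKO, red for NanogKO:Esrrb:Nanog and orange for NanogKO:Esrrb, with standard errors. Filled points had an adjusted p under 0.05. The highest points lie outside the genes at Cdh5 (2.50 and 1.39) and Kdr (2.59 and 2.35), and the lowest outside the genes at Tal1 (−2.24 and −1.84) and Lmo2 (−2.11 and −1.94).

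Counting the sums of the 7 genes, 1 was called higher and 3 lower in NanogKO:Esrrb:Nanog against NanogKO, 1 higher and 4 lower in NanogKO:Esrrb against NanogKO, and 1 higher and 1 lower in NanogKO:Esrrb:Nanog against NanogKO:Esrrb. The same test called 48.6% of all gene sums in the first of these (24.5% higher and 24.2% lower), 34.6% in the next (17.8% higher and 16.8% lower) and 20.9% in the last (10.5% higher and 10.4% lower). Both comparisons with NanogKO share its 3 libraries, and both comparisons with NanogKO:Esrrb:Nanog share that group's.

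**Figure D5:**
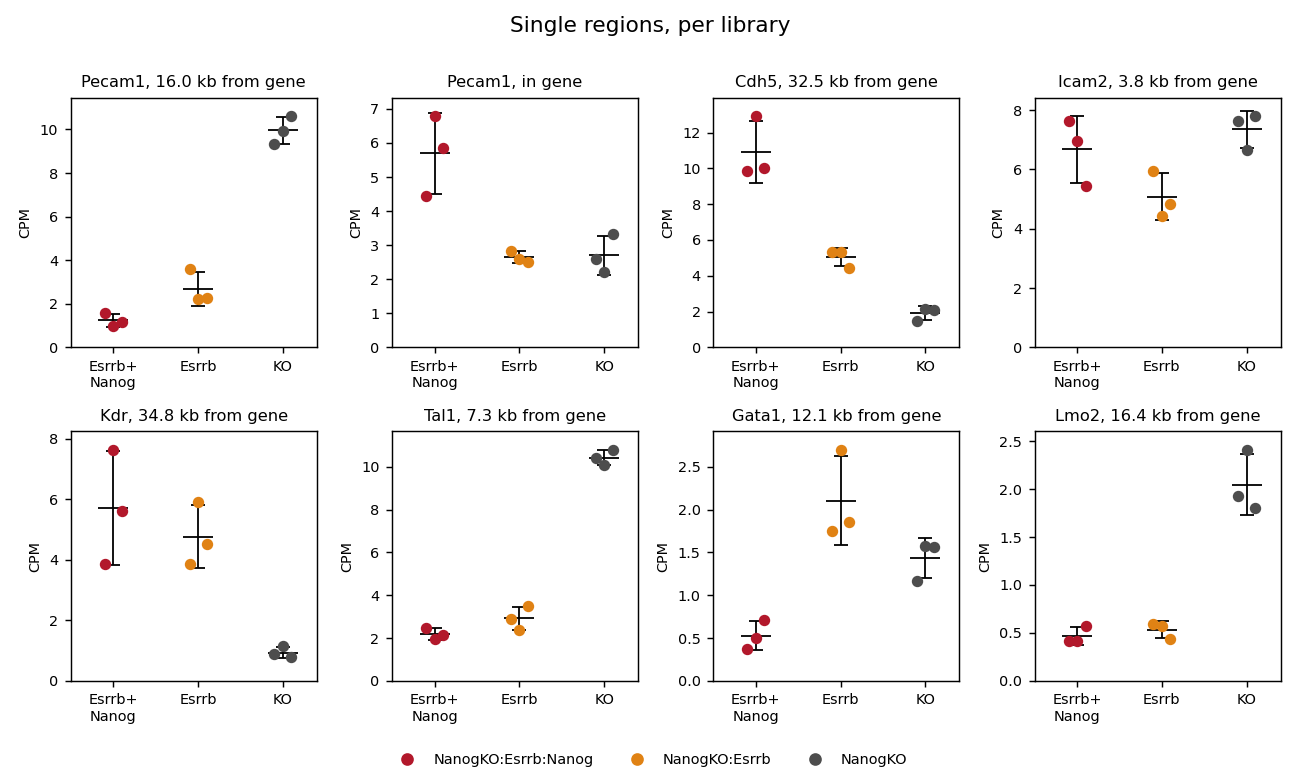
CPM (vertical axis, starting at 0) of 8 single regions in the 9 libraries, with the mean and SD of 3, in NanogKO:Esrrb:Nanog (Esrrb+Nanog), NanogKO:Esrrb (Esrrb) and NanogKO (KO). They are the Pecam1 regions of smallest p in NanogKO:Esrrb:Nanog against NanogKO and against NanogKO:Esrrb, and for each other gene the region of smallest p in NanogKO:Esrrb:Nanog against NanogKO. The Pecam1 region 16.0 kb from the gene and the Tal1 and Lmo2 regions are highest in the 3 NanogKO libraries, and the Cdh5 and Kdr regions lowest there.

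Per kb of counted region, the mean level in NanogKO:Esrrb:Nanog was 20.1 CPM at Icam2, 18.0 at Lmo2, 13.3 at Kdr, 12.5 at Pecam1, 11.8 at Tal1, 7.31 at Cdh5 and 3.82 at Gata1, and in NanogKO:Esrrb the order was the same, with 16.2, 15.1, 12.5, 12.4, 11.5, 6.94 and 6.25 CPM. In both, Icam2 overlapped Lmo2, Kdr overlapped Pecam1 and Pecam1 overlapped Tal1, and in NanogKO:Esrrb Cdh5 also overlapped Gata1. In NanogKO the order was Icam2 (22.7), Lmo2 (17.7), Tal1 (15.2), Pecam1 (14.1), Kdr (8.07), Cdh5 (7.04) and Gata1 (6.14). The NanogKO libraries of Kdr and Cdh5 overlapped, and the other neighbours in this order did not. Icam2 rests on 1 region of 352 bp and Pecam1 on 30 regions, so these levels come from unlike sets of regions. Kdr was thus below Pecam1 and Tal1 in NanogKO, while in both groups with Esrrb its mean was above theirs but its libraries overlapped those of both.

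The authors' peak lists held a peak at 49 of the 68 member regions in NanogKO:Esrrb:Nanog (72.1%), 51 in NanogKO:Esrrb (75.0%) and 52 in NanogKO (76.5%), where 73.8%, 81.5% and 75.4% of all regions had one, and 37 members (54.4%) had a peak in all 3 lists, against 55.3% of all regions. Of the members, 45.6% overlapped their gene, against 55.6% of all regions with their nearest gene, and the median length was 324 bp, against 345 bp. By definition every member lay within 50 kb of its gene, against 85.1% of all regions, so these shares of overlap come from unlike sets.

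The regions within 1 Mb of the genes gave the level of change around them. For NanogKO:Esrrb:Nanog against NanogKO their median log2 fold change was 0.22 around Kdr, −0.21 around Lmo2, −0.08 around Tal1, −0.03 around Gata1 and 0.09 around Pecam1. On chromosome X, which carries Gata1, the median was −0.12 in both comparisons with NanogKO. In NanogKO:Esrrb against NanogKO the medians were −0.16 around Lmo2, −0.13 around Tal1 and 0.10 around Kdr. The sums of Kdr (0.72 and 0.63) and Tal1 (−0.36 and −0.40) lay beyond the medians around them in both comparisons. A sum weights regions by their reads, so it is not a like measure to a median. The medians of their own regions were 0.52 and 0.58 at Kdr, and −0.17 and −0.48 at Tal1. Whether these gaps exceed the spread of the surrounding regions was not tested.

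Other endothelial and blood genes were read from a list of 44, of which 43 had a counted region. In NanogKO:Esrrb:Nanog against NanogKO, 14 gene sums were called higher and 9 lower (median log2 fold change 0.05), where 24.5% of all gene sums were higher and 24.2% lower. In NanogKO:Esrrb against NanogKO, 7 were higher and 8 lower (median −0.03), where 17.8% and 16.8% of all were. Between NanogKO:Esrrb:Nanog and NanogKO:Esrrb 5 were higher and 2 lower (median 0.00), where 10.5% and 10.4% of all were. The medians of all genes were 0.00, −0.01 and 0.00.

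Among them, Vwf, which encodes von Willebrand factor, was higher in both groups with Esrrb, by 0.46 ± 0.06 in NanogKO:Esrrb:Nanog (adjusted p = 5e-06) and 0.43 ± 0.06 in NanogKO:Esrrb (adjusted p = 1.9e-05) against NanogKO. Tie1, an endothelial receptor kinase, was higher by 0.50 ± 0.08 in NanogKO:Esrrb:Nanog (adjusted p = 6.3e-05) and 0.60 ± 0.08 in NanogKO:Esrrb (adjusted p = 1.5e-05). Ldb1, the gene of the partner that LMO2 bridges to, was higher by 0.53 ± 0.08 in NanogKO:Esrrb:Nanog (adjusted p = 1.7e-05) and 0.42 ± 0.08 in NanogKO:Esrrb (adjusted p = 0.00029). On the lower side stood Fli1, an ETS factor of endothelium and megakaryocytes, at −0.49 ± 0.07 in NanogKO:Esrrb:Nanog (adjusted p = 8.8e-06) and −0.40 ± 0.07 in NanogKO:Esrrb (adjusted p = 0.00013). Aplnr, the apelin receptor, was lower by −0.67 ± 0.11 in NanogKO:Esrrb:Nanog (adjusted p = 5.8e-05) and −0.51 ± 0.11 in NanogKO:Esrrb (adjusted p = 0.0013). Nfe2, a factor of erythroid cells and megakaryocytes, was lower by −0.56 ± 0.10 in NanogKO:Esrrb:Nanog (adjusted p = 0.00016) and −0.51 ± 0.10 in NanogKO:Esrrb (adjusted p = 0.00061). Between NanogKO:Esrrb:Nanog and NanogKO:Esrrb, Epor, the erythropoietin receptor, and Runx1, a factor needed for blood formation, were higher by 0.39 ± 0.09 and 0.25 ± 0.06 (adjusted p = 0.0053 and 0.0056). In that comparison Cd93, a surface lectin of endothelium, and Plvap, a protein of endothelial diaphragms, were lower by −0.51 ± 0.13 and −0.25 ± 0.07 (adjusted p = 0.01 and 0.021).

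The genes whose sums followed a member most closely over the 9 libraries, among 13582 genes with 3 or more regions, were Gprc5c for Pecam1 (Pearson r = 0.952), Rxrg for Cdh5 (0.962), Pik3ip1 for Icam2 (0.962), Prkce for Kdr (0.991), Sox3 for Tal1 (0.992), Ptp4a1 for Lmo2 (0.973) and Zfp457 for Gata1 (0.98). After them came Plcg2 and Mageb16 for Pecam1 (0.939 and 0.911), Batf and Col15a1 for Cdh5 (0.946 and 0.938), and Hif3a and Izumo2 for Icam2 (0.959 and 0.952). Manba and Arntl followed Kdr (0.99 and 0.989), Fhdc1 and Dlx5 followed Tal1 (0.99 and 0.985), Sema4g and Eif2ak4 followed Lmo2 (0.971 and 0.964), and Tcerg1l and Tbx19 followed Gata1 (0.973 and 0.971). The libraries share 3 groups, so a high value here describes a like order of the groups.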

How the data were processed

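The count table deposited by the authors gave raw reads per region as whole numbers, with no normalization, for 9 libraries. The build is mm10, per the submitters' processing notes. Those notes list, with no roles, bcl2fastq 2.19.1 and cutadapt. They also list Bowtie2 and SAMtools 1.4.1, then deepTools 4.4.0, and MACS2 2.2.0 with bedtools 2.26.0. The sources used here do not say which tool counted reads, whether reads were shifted for the transposase, whether duplicates were removed, or whether peaks were called on pooled libraries. Each group also had a deposited peak list, whose score per peak, 13 or higher, is the authors' own value. It was used only for presence of a peak. The design text names 12 samples, of which 9 were analysed.

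The counts were fitted in edgeR 4.0.16 (R 4.3.3), with TMM factors, filterByExpr and the quasi-likelihood F test over group means of all 9 libraries, which left 6 residual degrees of freedom. Calls used a Benjamini-Hochberg adjusted p under 0.05 over 157439 regions, or over 18719 genes for counts summed per gene. Standard errors are the log2 fold change divided by the square root of F. CPM values are scaled to library totals with the factors of the fit they come from, so a sum can differ slightly from its single regions. Log2 CPM for likeness and principal components used a prior count of 2. DESeq2 1.42.0 served as an alternative. The tests were tried on simulated counts first. Standard errors and p-values rest on the spread between libraries.

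Genes came from the RefSeq table of GRCm38.p6, which gives no strand, so strands are those of the promoter windows. "In" a gene means overlapping its span, exons and introns not told apart. The text names all 7 genes, the region on a promoter window or else nearest to a span end, the region of highest CPM and that of smallest p in each comparison. It also names the 3 genes most like each member and the 2 called sums of smallest p in each direction in the list of 44. Other regions were chosen after their values were seen. The members and lists were chosen with earlier results of these data known.

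Whether replicate numbers pair the libraries was checked from the correlation of their deviations from group means. Between NanogKO:Esrrb:Nanog and NanogKO:Esrrb, libraries of the same number gave 0.105 to 0.146, and between NanogKO:Esrrb and NanogKO they gave 0.117 to 0.152, which pairs these groups by the data, not the labels. For NanogKO:Esrrb:Nanog and NanogKO the values were 0.0022 to 0.136, which does not. Libraries of different numbers gave -0.0976 to 0.0445. The reported fits used no block, so their standard errors and p-values do not take this pairing into account. With the replicate number as a block, 23512 of all regions were called higher and 22243 lower in NanogKO:Esrrb:Nanog against NanogKO:Esrrb. Without the block these counts were 19777 and 18935. No libraries of a group were copies (chi-square per region 3.55 to 9.49).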

Additional observations from a re-analysis of the deposited data

How the results depend on the processing

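The same comparisons were run with DESeq2 size factors, with library totals alone, with the DESeq2 test, without the filter on low counts, with only the 2 groups compared, with the replicate number as a block, with each library left out in turn, and over regions within 10 kb or 100 kb. Of 672 single values recomputed, 609 kept their direction and their side of the threshold, and of 204 counts of calls, 184 stayed within 1.5 times the reported count. No member region called in the 3 comparisons was called in the other direction under an alternative.

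With library totals alone, 13 member regions were lower and 0 gene sums were higher in NanogKO:Esrrb:Nanog against NanogKO:Esrrb, and the log2 fold changes of sums not called turned to -0.01 for Gata1 in NanogKO:Esrrb against NanogKO, to -0.01 for Cdh5 and -0.04 for Lmo2 in NanogKO:Esrrb:Nanog against NanogKO, and to -0.01 for Pecam1 in NanogKO:Esrrb:Nanog against NanogKO:Esrrb. Only the 2 groups compared gave 0 higher sums in that last comparison. The replicate block gave 12 lower member regions there and called the Icam2 region. Among gene sums and the regions of smallest p in each gene, it changed no other call. With the block, every member region called in the main fit kept its call and direction. These were 26 of 26 in NanogKO:Esrrb against NanogKO, 33 of 33 in NanogKO:Esrrb:Nanog against NanogKO and 17 of 17 in NanogKO:Esrrb:Nanog against NanogKO:Esrrb. Other named regions were not followed one by one under the alternatives, and the block may have newly called some of those not called. Regions within 10 kb, of which fewer were counted, gave 6 higher regions in NanogKO:Esrrb against NanogKO, and 3 lower regions and 0 lower sums in NanogKO:Esrrb:Nanog against NanogKO:Esrrb. Over them the sum of Cdh5 turned to -0.41 in NanogKO:Esrrb:Nanog against NanogKO and to -0.12 in NanogKO:Esrrb:Nanog against NanogKO:Esrrb, and that of Gata1 to -0.14 in NanogKO:Esrrb against NanogKO. Over regions within 100 kb Cdh5 gave -0.04 in NanogKO:Esrrb:Nanog against NanogKO.

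With each library left out in turn, 1 to 4 sums were lower in NanogKO:Esrrb against NanogKO and 0 to 2 higher in NanogKO:Esrrb:Nanog against NanogKO:Esrrb. Log2 fold changes of sums that changed sign without being called ran from -0.07 to 0.03 for Cdh5 and from -0.12 to 0.10 for Gata1 in NanogKO:Esrrb against NanogKO. They ran from 0.00 to 0.13 for Cdh5 and from -0.03 to 0.10 for Lmo2 in NanogKO:Esrrb:Nanog against NanogKO, and from -0.05 to 0.11 for Pecam1 and -0.04 to 0.11 for Tal1 in NanogKO:Esrrb:Nanog against NanogKO:Esrrb. The cause of these shifts was not tested. Reads per region limit the weakest members, such as those of Gata1, and every counted region had a peak in at least 1 deposited list, so regions open elsewhere were not counted.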
